A study of Homo sapiens with 6 samples.

Results

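A set of 34 human genes that silence, restrict or support LINE-1 was followed in HEK293 cells, a human embryonic kidney line, after CRISPR/Cas9 disruption of ZNF146 or ZNF507. The 34 genes were listed by name for what is known of their function, with earlier results of these data known. Of these, 33 were matched to a row of the count table and all 33 passed the filter on low counts, out of 22010 genes tested and 57773 in the table. TASOR was matched under its present symbol and was formerly FAM208A. UHRF1, which brings DNMT1 to newly replicated DNA, has no value here because its identifier in the annotation used matched no row.

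LINE-1 is a retrotransposon that copies itself through an RNA intermediate. Its RNA is bound by the proteins it encodes, an RNA chaperone and an endonuclease with reverse transcriptase activity, and a new copy is made at a nick in chromosomal DNA. Cells hold it back in several layers: heterochromatin marked by methylated histone H3 lysine 9, DNA methylation at its promoter, helicases and editing enzymes that act on its RNA, and nucleases and deaminases that act on its nucleic acids. Other host proteins travel with the LINE-1 ribonucleoprotein or help it to integrate. Both disrupted genes encode zinc finger proteins studied for their binding to LINE-1 sequences, so the comparison asked whether losing either one was accompanied by a change in the RNA of these factors.

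The EV group received Cas9 plasmid (PX459) as an empty vector, the sgZNF146 group received plasmids with 4 guides against ZNF146, and the sgZNF507 group received plasmids with 4 guides against ZNF507. All 3 groups of HEK293 cells were transfected transiently, selected with puromycin for 36 hours and grown out for 2 weeks, and each gave 2 libraries of total RNA depleted of ribosomal RNA. No isolation of single clones is described, so each library stands for a pool of edited and unedited cells, in which fewer cells with a transcript and less of it per cell cannot be told apart.

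Library totals ranged from 22724439 to 28524025 counts, and replicates of a group differed by more than counting error. Of the targeted genes, ZNF507 was at 72.0 and 75.5 CPM (counts scaled to the adjusted size of the library) in EV, 71.3 and 73.3 in sgZNF146, and 47.2 and 48.7 in sgZNF507. It fell in sgZNF507 against EV (log2 fold change −0.62, SE 0.07, adjusted p = 0.00195, edgeR quasi-likelihood F test, Benjamini-Hochberg). ZNF146 was at 115 and 105 CPM in EV, 99.2 and 103 in sgZNF146, and 88.4 and 101 in sgZNF507. Its difference in sgZNF146 did not pass that test (−0.13, SE 0.08, adjusted p = 1.00), so its RNA level does not check the label. RNA level does not measure a frameshift or the protein. By western blot, the paper reports, both proteins were essentially undetectable in the targeted cells. In the RNA reads it found frequent insertions or deletions at the guide sites that control cells lacked. Markers of HEK293 were present, with mean CPM in EV of 1087 for VIM, 96.7 for LIN28B, 84.9 for KRT18, 75.4 for NEFM, 67.8 for KRT8 and 6.27 for PAX2, and NEFL had no matched row. Among markers of other cell types, HBB and KRT5 were at 0 counts in all 6 libraries, CD3E had at most 1 count, PTPRC at most 5, and ALB and the germ line helicase DDX4 at most 6 each, while COL1A1 (61.7 CPM in EV) and LYZ (6.84) were detected.

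The LINE-1 factors were mostly abundant transcripts. On the CPM scale, 28 of 33 lay above the median of all genes tested and 13 lay in the top 10%, with a median percentile of 89.3. Levels of different genes were compared as CPM per kilobase of exon, taking the union of annotated exons as the length. On that scale the EV means of the 33 genes spanned 882-fold, from TRIM28 at 217 to L1TD1 at 0.246. TRIM28 and NCL (177) stood highest, followed by PCNA (123), PABPC1 (66.6) and HNRNPL (49.9). APOBEC3G (0.866), RNASEH2B (0.652) and L1TD1 stood lowest. By the longest transcript in place of all exons the same 5 factors led in another order, with NCL at 373, TRIM28 at 278, PABPC1 at 185, PCNA at 127 and HNRNPL at 105.

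**Figure D1:**
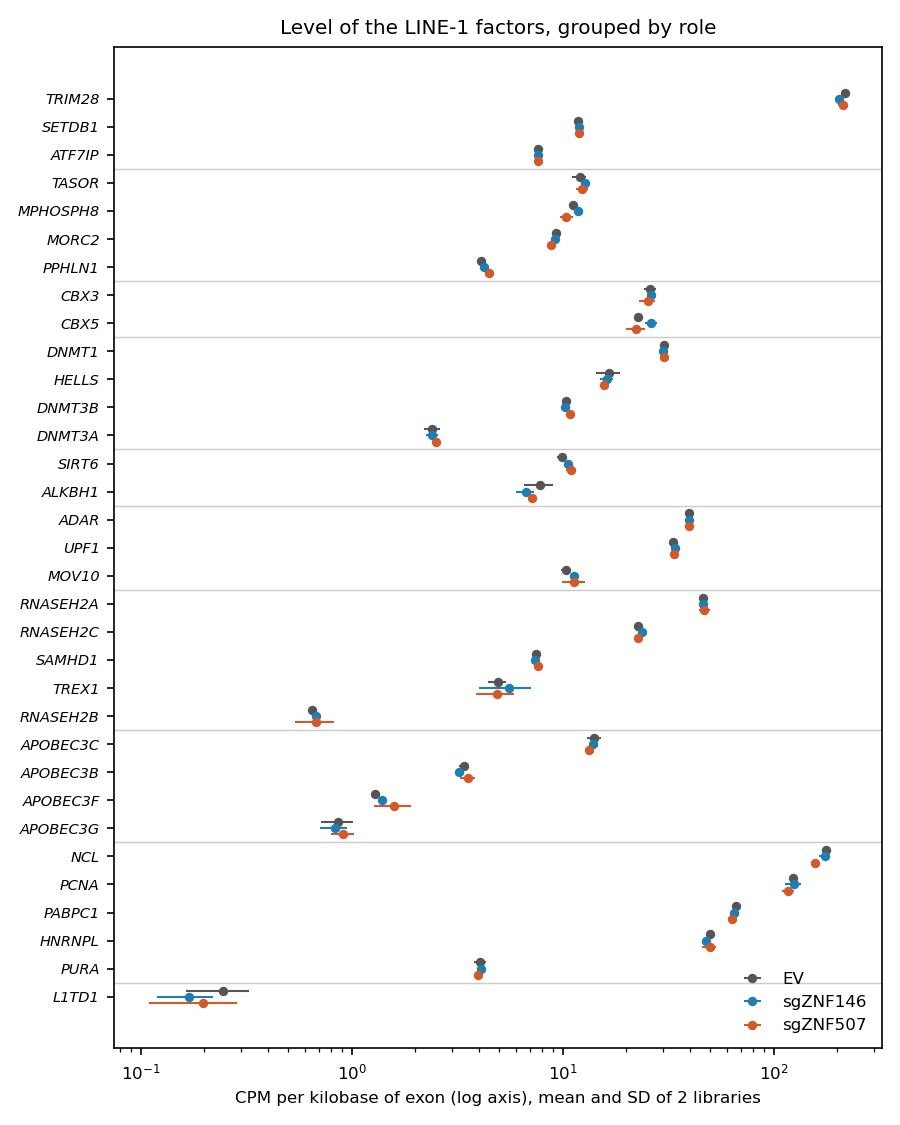
Level of each of the 33 LINE-1 factors in CPM per kilobase of exon (log axis), as the mean and SD of 2 libraries in EV, sgZNF146 and sgZNF507, with gray lines between roles. TRIM28, NCL and PCNA sit above 100 and L1TD1 below 0.3 in all 3 groups, and the groups lie close together for most genes.

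None of the 33 factors passed the threshold in any comparison without a replicate block, and with the block CBX5 alone passed, in sgZNF507 against sgZNF146 and among the 3 groups. The block pairs libraries by replicate number, and the labels state no shared batch. In sgZNF507 against EV, 0 of 33 were called by edgeR's quasi-likelihood test at an adjusted p under 0.05, beside 0.182% of all genes tested (40 genes). In sgZNF146 against EV, 0 of 33 were called, beside 0% of all genes. In sgZNF507 against sgZNF146, 0 of 33 were called, beside 0.173% (38 genes). The test for any difference among the 3 groups also called 0 of 33, beside 0.186% (41 genes). DESeq2 on the same 6 libraries without the block called 0 factors as well in each of these comparisons. At such shares, 33 genes would hold fewer than 1 call.

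At an unadjusted p under 0.05, the factors were near the background in the comparisons with EV. Their share was above it in sgZNF507 against sgZNF146 and among the 3 groups, on 3 and 2 genes, with CBX5 and NCL in both. The background covers all genes tested, which include many of lower count, and no set of genes matched for level was compared. In sgZNF507 against EV the only one was NCL, lower, beside 3.39% of all genes. In sgZNF146 against EV the only one was CBX5, higher, beside 2.43%. In sgZNF507 against sgZNF146 there were 3, CBX5, MPHOSPH8 and NCL, all lower, beside 4.03%. The test among the 3 groups had 2, CBX5 and NCL, beside 3.02%. The 2 comparisons with EV share the EV libraries, and each group enters 2 comparisons.

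The factors moved little in either direction. Their median log2 fold change was −0.0038 in sgZNF507 against EV, −0.0044 in sgZNF146 against EV and 0.0048 in sgZNF507 against sgZNF146, and over all genes tested it was −0.0032, −0.0013 and −0.0040. The median size of the change, without sign, was 0.067, 0.035 and 0.057 for the factors and 0.095, 0.085 and 0.098 for all genes, which include many of lower count. Positive and negative changes numbered 15 and 18, 16 and 17, and 17 and 16. Both libraries of sgZNF507 were above both of EV for 4 factors and below for 4, beside 14% and 15.3% of all genes. Both libraries of sgZNF146 were above both of EV for 6 factors and below for 2, beside 14% and 14.6%. Both libraries of sgZNF507 were above both of sgZNF146 for 3 factors and below for 8, beside 15.5% and 16.5%.

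The intervals give the range of changes that these libraries cannot set apart from the fitted change. The 95% interval of the change lay within 1.5-fold in either direction for 31 of 33 factors in each comparison. The shares over all genes, which include many of lower count, were 60.2%, 60.7% and 59.5%. The exceptions were L1TD1 in all comparisons, APOBEC3F in sgZNF507 against EV, and TREX1 in sgZNF146 against EV and in sgZNF507 against sgZNF146. A fitted change over 1.2-fold was seen for APOBEC3F and L1TD1 in sgZNF507 against EV, beside 20.1% of all genes, for L1TD1 in sgZNF146 against EV, beside 18.7%, and for 0 factors in sgZNF507 against sgZNF146, beside 21%. No change of that size passed the test.

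**Figure D2:**
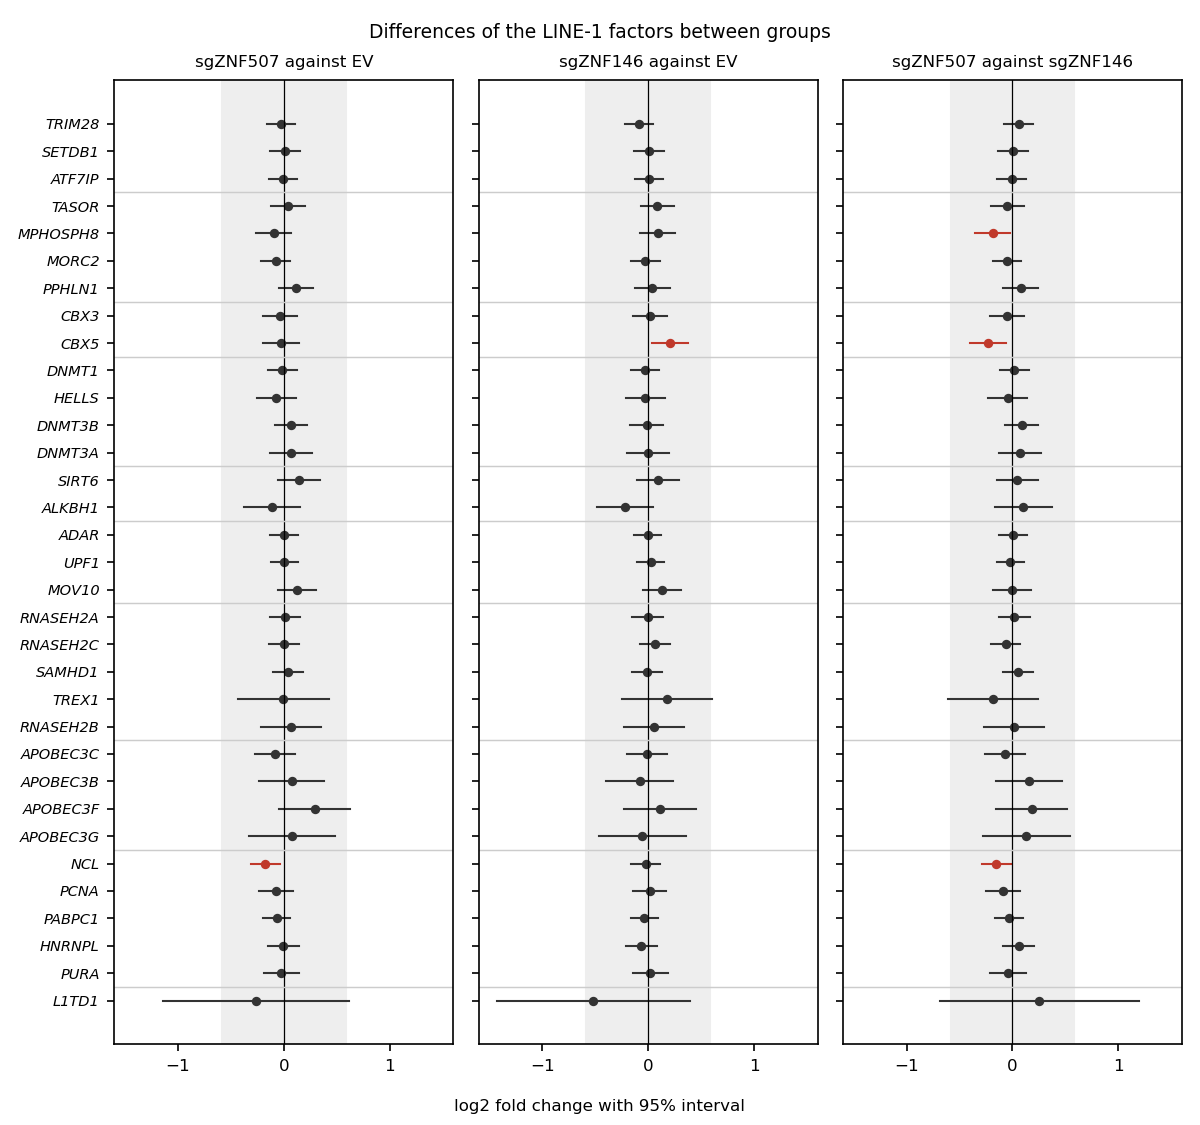
Log2 fold change of the 33 LINE-1 factors with its 95% interval in the 3 comparisons, with gray shading from −0.58 to 0.58 (1.5-fold) and red for an unadjusted p under 0.05. The red points are NCL in sgZNF507 against EV, CBX5 in sgZNF146 against EV, and MPHOSPH8, CBX5 and NCL in sgZNF507 against sgZNF146, and the interval of L1TD1 leaves the shading in each panel.

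TRIM28, SETDB1 and ATF7IP write the repressive histone mark: TRIM28 is the corepressor recruited by KRAB zinc finger proteins, SETDB1 the histone H3 lysine 9 methyltransferase it brings, and ATF7IP the partner that stabilizes SETDB1. TRIM28 was at 930 and 941 CPM in EV, 897 and 867 in sgZNF146, and 948 and 886 in sgZNF507. Both sgZNF146 libraries lay below both EV libraries, and sgZNF507 overlapped EV. The difference in sgZNF146 did not pass the test (log2 fold change −0.09, 95% interval −0.22 to 0.05). SETDB1 ranged from 85.6 to 90.7 CPM over the 6 libraries. ATF7IP, from 98.9 to 102 CPM, had the lowest spread of all 33 factors, with a coefficient of variation of 1.10% over the 6 libraries where counting alone would give 1.97%. Over the 3 genes, changes against EV ran from −0.03 to 0.01 in sgZNF507 and from −0.09 to 0.01 in sgZNF146.

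The human silencing hub (HUSH) is built from MPHOSPH8, which reads methylated histone H3 lysine 9, TASOR, its scaffold, and PPHLN1, and it works with MORC2, an ATPase that compacts chromatin. MPHOSPH8 lies on the plus strand of GRCh37 at chr13:20207799-20247581. It was at 55.0 and 54.5 CPM in EV, 58.6 and 57.9 in sgZNF146, and 48.6 and 53.7 in sgZNF507. The 3 groups did not overlap, with sgZNF146 above EV and sgZNF507 below it. Among the 33 factors only MPHOSPH8 was ordered in this way or its reverse, and the share of all genes so ordered was not counted. The difference between sgZNF507 and sgZNF146 was −0.19 (SE 0.08, unadjusted p = 0.0300, adjusted p = 1.00, edgeR quasi-likelihood F test, Benjamini-Hochberg), and neither difference from EV had an unadjusted p under 0.05. Without replicate 1 of sgZNF507 the difference between sgZNF507 and sgZNF146 for MPHOSPH8 was −0.12. TASOR was at 125 and 112 CPM in EV, 126 and 126 in sgZNF146, and 128 and 116 in sgZNF507, so that its replicates in EV lay further apart than its group means. PPHLN1 was at 51.6 and 48.5, 50.5 and 52.3, and 55.5 and 52.9 CPM in the same order of groups. Both sgZNF507 libraries were the highest for PPHLN1, by 0.11 over EV (95% interval −0.05 to 0.28). MORC2 was at 100 and 102, 102 and 97.1, and 96.8 and 94.8 CPM, with sgZNF507 lowest. Both sgZNF507 libraries thus lay below EV for MPHOSPH8 and MORC2 and above EV for PPHLN1, and none of these differences passed the test.

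CBX5 and CBX3 encode the heterochromatin proteins HP1 alpha and HP1 gamma, which bind the same histone mark. CBX5 lies on the minus strand of GRCh37 at chr12:54624726-54673917. It was at 339 and 344 CPM in EV, 376 and 412 in sgZNF146, and 310 and 361 in sgZNF507. Both sgZNF146 libraries were the highest of the 6, and sgZNF507 lay on both sides of EV. In sgZNF146 against EV the change was 1.15-fold (95% interval 1.03 to 1.30, unadjusted p = 0.0205, adjusted p = 1.00, edgeR's quasi-likelihood test), and in sgZNF507 against sgZNF146 it was 0.851-fold (0.757 to 0.956, unadjusted p = 0.0107, adjusted p = 1.00). As a log2 fold change the latter was −0.23, and −0.13 without replicate 1 of sgZNF507. Replicate 2 exceeded replicate 1 for CBX5 in all 3 groups, and in an edgeR fit with a replicate block the second of these comparisons passed the threshold (log2 fold change −0.23, adjusted p = 0.0268, and 0.0355 with the block in DESeq2), as did the test among the 3 groups (adjusted p = 0.0313). The block called 0.891% of all genes in the first case (196 genes) and 0.972% in the second (214 genes). CBX5 in sgZNF146 against EV did not pass with the block (adjusted p = 0.221, beside 0.15% of all genes called). CBX3 showed no such order, at 131 and 120 CPM in EV, 131 and 124 in sgZNF146, and 115 and 130 in sgZNF507.

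None of the 4 measured genes of DNA methylation passed the test in any comparison. DNMT1, which copies methylation after replication, was at 481 and 454 CPM in EV, 465 and 450 in sgZNF146, and 472 and 455 in sgZNF507. DNMT3A and DNMT3B place new methylation, and DNMT3B exceeded DNMT3A per kilobase of exon in EV, at 10.4 ± 0.34 against 2.41 ± 0.21 (SD, n = 2). DNMT3A ranged from 31.3 to 35.5 CPM and DNMT3B from 69.4 to 77.8 CPM over the 6 libraries. DNMT3B was higher in both sgZNF507 libraries than in both sgZNF146 libraries, by 0.09 (95% interval −0.07 to 0.24). HELLS, a chromatin remodeller needed for methylation of repeats, was at 257 and 214 CPM in EV, 243 and 219 in sgZNF146, and 230 and 217 in sgZNF507. Replicate 1 was the higher of the pair in every group for HELLS, and the groups overlapped. Changes of the 4 genes against EV lay between −0.07 and 0.07.

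SIRT6, a deacylase of chromatin, was at 28.4 and 26.3 CPM in EV, 30.0 and 28.3 in sgZNF146, and 31.3 and 29.0 in sgZNF507. Both sgZNF507 libraries lay above EV, by 0.14 (95% interval −0.06 to 0.34). ALKBH1, which removes methyl groups from nucleic acids, was at 24.6 and 19.7 CPM in EV, 17.7 and 20.4 in sgZNF146, and 20.0 and 20.9 in sgZNF507. Its 2 EV libraries differed by more than the group means did, and its change in sgZNF146 of −0.21 had an interval from −0.48 to 0.05.

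**Figure D3:**
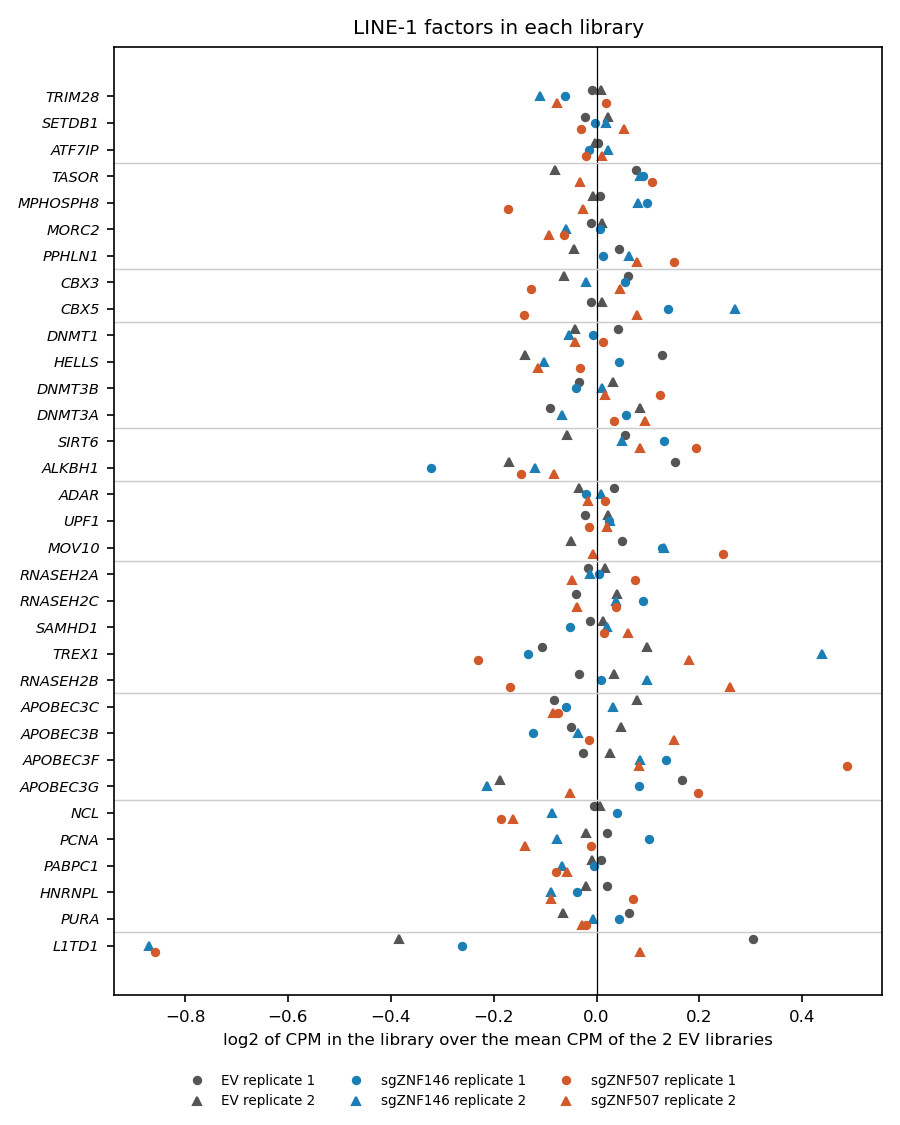
Log2 of the CPM of each library over the mean CPM of the 2 EV libraries for the 33 LINE-1 factors, with circles for replicate 1, triangles for replicate 2 and gray lines between roles. Most points lie within 0.2 of 0, the libraries of a group are often as far apart as the groups, and the points of L1TD1, TREX1 and APOBEC3F spread furthest.

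The RNA helicase MOV10 binds LINE-1 RNA, UPF1 drives nonsense-mediated decay, and ADAR edits adenosines in double-stranded RNA. MOV10 was at 94.0 and 87.8 CPM in EV, 99.4 and 99.6 in sgZNF146, and 108 and 90.5 in sgZNF507. Both sgZNF146 libraries were above EV, while sgZNF507 overlapped it. The changes against EV were 0.13 (95% interval −0.05 to 0.31) in sgZNF146 and 0.12 (−0.05 to 0.30) in sgZNF507, and the second was −0.01 without replicate 1 of sgZNF507. UPF1 ranged from 295 to 305 CPM and ADAR from 476 to 499 CPM over all libraries. Their coefficients of variation were 1.53% and 1.79%, and their intervals against EV stayed between −0.14 and 0.15.

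SAMHD1 hydrolyses the nucleotides that reverse transcription needs, TREX1 degrades cytosolic DNA, and the RNASEH2 complex removes RNA from hybrids with DNA. The catalytic subunit RNASEH2A was at 46.5 CPM per kilobase in EV and the auxiliary subunit RNASEH2C at 22.7. The other auxiliary subunit, RNASEH2B, was at 0.652 by the union of its exons, 26222 bases, and at 2.35 by its longest transcript, so its rank depends on the length taken. RNASEH2A ranged from 92.6 to 101 CPM, RNASEH2C from 110 to 120 CPM and RNASEH2B from 15.2 to 20.5 CPM. SAMHD1 was at 80.1 and 81.4 CPM in EV, 77.9 and 81.9 in sgZNF146, and 81.6 and 84.2 in sgZNF507, with both sgZNF507 libraries just above EV. The fitted changes of these 4 genes against EV lay between −0.02 and 0.07.

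TREX1 had 165 and 211 counts in EV, 165 and 243 in sgZNF146, and 140 and 234 in sgZNF507. In CPM, replicate 2 exceeded replicate 1 in every group, and the groups overlapped. All 1448 exon bases of TREX1 lie within exons of ATRIP, the partner of the ATR kinase, on the same strand, and 82.4% of the 50-base windows of its transcripts are also found in ATRIP transcripts. ATRIP itself had 724 and 961 counts in EV, 762 and 850 in sgZNF146, and 660 and 967 in sgZNF507. How reads shared by both genes were counted is not given in the sources used here, so the level of TREX1 is uncertain.

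The APOBEC3 enzymes deaminate cytidine, and their genes lie in a cluster on chromosome 22. Parts of some of their coding sequences are so alike that a read can match more than 1 of them. Within single coding exons, the longest run that APOBEC3C shared was 81 bases with APOBEC3F, 23 with APOBEC3B and 18 with APOBEC3G. The runs below are the longest that APOBEC3B shares with APOBEC3F, and APOBEC3F with APOBEC3G, within single coding exons on GRCh37, plus strand. Only the canonical transcript of each gene was searched, without untranslated exons or exon junctions, so longer shared runs may exist. The runs are shown because a read within them matches both genes. Reads were paired, and the mate of such a read was not considered. Capitals mark the first 50 bases, the length of 1 read, and no base of either run differs between the genes.
APOBEC3B and APOBEC3F, 131 bases: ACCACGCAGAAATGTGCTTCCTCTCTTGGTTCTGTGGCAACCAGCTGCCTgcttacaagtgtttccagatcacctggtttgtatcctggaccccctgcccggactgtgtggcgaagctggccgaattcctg
APOBEC3F and APOBEC3G, 125 bases: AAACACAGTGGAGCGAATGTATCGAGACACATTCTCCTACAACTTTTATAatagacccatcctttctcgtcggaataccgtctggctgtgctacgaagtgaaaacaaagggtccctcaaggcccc

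The first run lies at chr22:39381836-39381966 in exon 3 of APOBEC3B and at chr22:39440965-39441095 in exon 3 of APOBEC3F. The second lies at chr22:39438942-39439066 in exon 2 of APOBEC3F and at chr22:39474937-39475061 in exon 2 of APOBEC3G. Of the 50-base windows of APOBEC3B, 26.9% occur in transcripts of other genes in the table, 14.1% in APOBEC3A, 7.76% in APOBEC3D and 5.09% in APOBEC3F. The share was 11.9% for APOBEC3F, 5.76% for APOBEC3G and 1.21% for APOBEC3C.

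APOBEC3C stood highest of the 4 in EV, at 14.1 ± 1.1 CPM per kilobase (SD, n = 2), above APOBEC3B at 3.40 ± 0.16, APOBEC3F at 1.29 ± 0.03 and APOBEC3G at 0.866 ± 0.149, and neighbours in this order differed by more than their spread. By the longest transcript APOBEC3G (1.68) stood above APOBEC3F, so the order of these 2 depends on the length taken. APOBEC3F had 165 and 190 counts in EV, 188 and 180 in sgZNF146, and 218 and 207 in sgZNF507. In CPM this was 6.63 and 6.87, 7.41 and 7.15, and 9.46 and 7.15, and replicate 1 of sgZNF507 stood above the other 5 libraries. Its change in sgZNF507 against EV was 0.29 (SE 0.15, 95% interval −0.05 to 0.63), and 0.08 without that library. APOBEC3B ranged from 5.91 to 7.15 CPM, APOBEC3C from 35.2 to 39.5 CPM and APOBEC3G from 4.01 to 5.34 CPM. For these 3 genes changes against EV lay between −0.08 and 0.08, none past the test.

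The last group travels with LINE-1 RNA or joins its integration: PABPC1 binds poly(A) tails, NCL (nucleolin), HNRNPL and PURA bind RNA or single-stranded nucleic acids, and PCNA is the sliding clamp of replication. NCL lies on the minus strand at chr2:232318242-232348352. It was at 1575 and 1588 CPM in EV, 1626 and 1488 in sgZNF146, and 1390 and 1413 in sgZNF507. Both sgZNF507 libraries lay below the other 4. The change was 0.886-fold in sgZNF507 against EV (95% interval 0.806 to 0.974, unadjusted p = 0.0165, adjusted p = 1.00, edgeR's quasi-likelihood test) and 0.900-fold against sgZNF146 (0.819 to 0.990, unadjusted p = 0.0324, adjusted p = 1.00). Without replicate 1 of sgZNF146 the log2 fold change of NCL against sgZNF146 was −0.08 in place of −0.15. PABPC1 was at 640 and 632 CPM in EV, 634 and 607 in sgZNF146, and 602 and 611 in sgZNF507, with sgZNF507 below EV by 0.07 (95% interval of the log2 fold change −0.20 to 0.06). HNRNPL ranged from 305 to 341 CPM, PURA from 48.6 to 53.1 CPM and PCNA from 157 to 186 CPM. HNRNPL was below EV in both sgZNF146 libraries, at 316 and 305 against 329 and 320 CPM. The fitted changes of the 5 genes in sgZNF507 against EV ran from −0.17 to −0.01, and none passed the test.

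L1TD1, a gene derived from the first reading frame of LINE-1 and known from pluripotent cells, was barely detected. It lies on the plus strand at chr1:62660521-62678000. It had 29 and 20 counts in EV, 20 and 13 in sgZNF146, and 12 and 29 in sgZNF507. In CPM this was 1.16 and 0.723, 0.788 and 0.517, and 0.521 and 1.00, and the groups overlapped. Its coefficient of variation of 33.0% was the highest of the 33 genes, beside 22.2% from counting alone, and its change in sgZNF146 of −0.52 had an interval from −1.43 to 0.39. At this depth, changes of L1TD1 within that interval cannot be told apart, no change among them.

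Across the 6 libraries the median coefficient of variation of the factors was 5.26%, and 16 factors were below 5%. For all genes tested, which include many of lower count, it was 10.1%, and no set of genes matched for level was compared. Part of this spread followed the replicate number. The replicate term, tested after the data were seen, passed the threshold in the blocked edgeR fit for 2 of 33 factors, beside 7.25% of all genes (1596 genes). HELLS was higher in replicate 1 (log2 of replicate 2 over replicate 1, −0.16, adjusted p = 0.0137) and TREX1 in replicate 2 (0.40, adjusted p = 0.0138). Replicate 1 was higher in all 3 groups for 8 factors, beside 19.3% of all genes, and replicate 2 for 7, beside 20.3%.

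**Figure D4:**
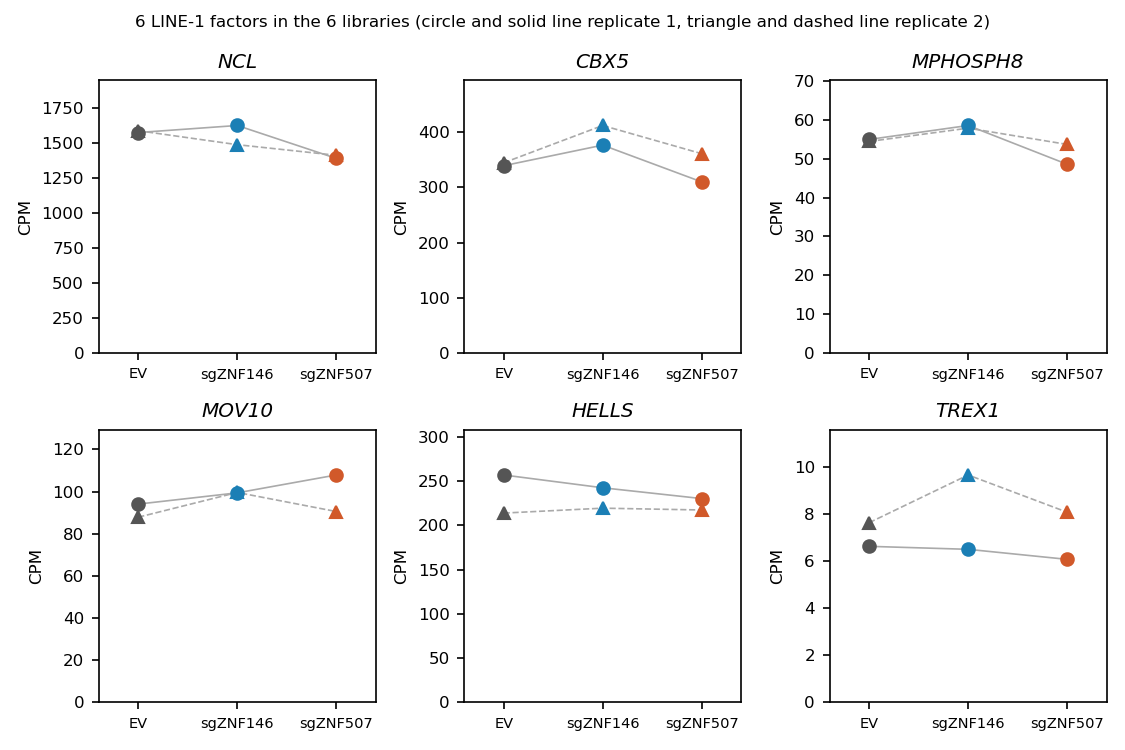
CPM of NCL, CBX5, MPHOSPH8, MOV10, HELLS and TREX1 in each library, with axes from 0, circles and solid lines for replicate 1 and triangles and dashed lines for replicate 2. NCL is lowest in both sgZNF507 libraries (1390 and 1413), CBX5 highest in both sgZNF146 libraries (376 and 412), and the replicates of HELLS and TREX1 keep their order in all 3 groups.

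Positions and copies of the factors were looked up in the annotation. Of the 33 genes, 6 lie on chromosome 19 with ZNF146 and ZNF507. TRIM28 lies 22.3 Mb and HNRNPL 2.62 Mb beyond the start of ZNF146, and both were below EV in both sgZNF146 libraries. They were the 2 of 33 factors in that position, beside 14.6% of all genes. UPF1, on the other side of ZNF146, was above EV in both, beside 14% of all genes. RNASEH2A, DNMT1 and SIRT6, on that side too, overlapped EV. The part of position in these values was not tested. The annotation holds 33 pseudogenes named after factors, among them 13 of PABPC1 and 10 of CBX3. Of these, 5 passed the filter on low counts, and edgeR called 0 against EV, with 0 at an unadjusted p under 0.05. For CBX3, 3.83% of its 50-base windows are also found in CBX3P9, which had 17 to 40 counts a library. For HNRNPL, 5.66% are found in HNRNPLP2, which had 47 to 71 counts. The search by name found no pseudogene of MPHOSPH8, yet 7.84% of its 50-base windows are also found in transcripts of 66 other genes.

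Beyond the 33 factors, 78 further genes of LINE-1 control were listed, of which 73 passed the filter. They cover heterochromatin and corepressors, DNA demethylation, LINE-1 binding KRAB zinc finger genes, RNA surveillance, other APOBEC3 and antiviral factors, the piRNA pathway, repair at insertion sites and factors that bind the LINE-1 promoter. Of the 73, edgeR's quasi-likelihood test called 0 in each comparison, with 2, 1 and 3 at an unadjusted p under 0.05 in sgZNF507 against EV, sgZNF146 against EV and sgZNF507 against sgZNF146, and DESeq2 called 0 in each. The shares over all genes were 0.182%, 0% and 0.173% called, and 3.39%, 2.43% and 4.03% at an unadjusted p under 0.05. Those not tested for low counts were APOBEC3H, ZCCHC3, PIWIL4, TDRD1 and DDX4.

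The genes of that list with the smallest p in sgZNF507 against EV were FEN1, YY1 and YTHDC1. FEN1, the flap endonuclease, was at 159 and 152 CPM in EV, 158 and 156 in sgZNF146, and 178 and 168 in sgZNF507, and was highest in both sgZNF507 libraries (0.15, SE 0.06, adjusted p = 1.00). YY1, which binds the LINE-1 promoter, was at 207 and 197 CPM in EV, 219 and 185 in sgZNF146, and 188 and 162 in sgZNF507. Its replicate 1 was the higher in every group and both sgZNF507 libraries lay below EV (−0.21, SE 0.09, adjusted p = 1.00, edgeR's quasi-likelihood test). With the replicate block YY1 passed the threshold in sgZNF507 against EV (−0.21, adjusted p = 0.0405, beside 0.55% of all genes) and in sgZNF507 against sgZNF146 (−0.21, adjusted p = 0.0389, beside 0.891%), and in the test among the 3 groups (adjusted p = 0.0256, beside 0.972%). DESeq2 with the block called 0 genes of the list in each comparison of a pair of groups. YTHDC1, a reader of N6-methyladenosine in RNA, had a change of −0.14 (SE 0.07, adjusted p = 1.00).

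In sgZNF146 against EV the smallest p values belonged to genes with few counts. APOBEC3A, a cytidine deaminase, had 20 and 22 counts in EV, 12 and 7 in sgZNF146, and 17 and 14 in sgZNF507 (−1.08 in sgZNF146 against EV, SE 0.43, adjusted p = 1.00, edgeR's quasi-likelihood test). PIWIL2, of the piRNA pathway, counted 39 and 39 reads in the EV libraries against 31 and 22 in sgZNF146. BST2, an antiviral membrane protein, counted 10 and 10 reads in the EV libraries against 16 and 16 in sgZNF146. No gene of the list passed in this comparison, with or without the block.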

How the data were processed

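Per the labels and the study's methods, the authors clipped reads with the Fastx Toolkit, removed ribosomal reads, mapped paired reads of 50 bases to hg19 (GRCh37) with TopHat2 as a strand-specific library against Ensembl annotation, and counted them with featureCounts. The deposited values are raw counts per gene in 6 libraries. Options for strand, shared reads and ambiguous genes in counting are not given in the sources used here. Without molecular identifiers, PCR duplicates count as reads, so intervals of counting cover counting error only.

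Identifiers were paired with symbols and positions through GENCODE on GRCh37, which matched 55538 of 57773 (96.1%). Exon and transcript lengths come from that annotation too, not from the Ensembl annotation that the authors used. They can include exons that were not counted, so levels per kilobase and their order are approximate. The main test was that of edgeR 4.0.16 in R 4.3.3: filterByExpr on the 3 groups, TMM, glmQLFit on all 6 libraries and glmQLFTest, with Benjamini-Hochberg adjustment over 22010 genes and a threshold of 0.05. CPM are counts over the TMM-adjusted library size. Standard errors come from the F statistic, and intervals are therefore approximate. Windows of 50 bases were compared between annotated transcripts of the genes in the table.

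The labels give replicate numbers and state no shared batch, so the pairing was inferred from the counts themselves. Deviations of same-numbered libraries from their group means correlated over all genes in each pair of groups (r = 0.138, 0.176 and 0.145). These correlations are weak, and every result of the block or the replicate term depends on this pairing. Alternatives were other scalings and filters, DESeq2 1.42.0, fits on the 4 libraries compared, the replicate block, the plain ratio of mean CPM and leaving out each library. All 34 factors are named. Of the 78 further genes, those past the threshold and the 3 with the smallest p against EV are named, as are pseudogenes past the threshold. The factors and lists were chosen with earlier results of these data known.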

Additional observations from a re-analysis of the deposited data

Results flagged for a closer look

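MPHOSPH8, the HUSH subunit that reads methylated histone H3 lysine 9, was above EV in both sgZNF146 libraries and below EV in both sgZNF507 libraries. All 33 factors were searched for such an ordering, in either direction, and only MPHOSPH8 had it. The share of all genes with it was not counted, and the p below rests on the same values that picked MPHOSPH8. The difference of its log2 changes, sgZNF507 minus sgZNF146, was −0.186, with an unadjusted p of 0.0300 and an adjusted p of 1.00 by edgeR's quasi-likelihood test. Without replicate 1 of sgZNF507 the difference was −0.119. With the replicate block the adjusted p was 0.236. The 2 changes share the EV libraries, which were at 55.0 and 54.5 CPM. For MPHOSPH8, 7.84% of its 50-base windows are also found in transcripts of 66 other genes.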

How the results depend on the processing

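With the replicate number as a block, pairing the libraries, edgeR called 1 factor (CBX5) in sgZNF507 against sgZNF146 and 1 among the 3 groups, where DESeq2 with the block also called 1 and 1, and edgeR called 1 further gene (YY1) in sgZNF507 against EV, in sgZNF507 against sgZNF146 and among the 3 groups (adjusted p = 0.0256). DESeq2 with the block called 0 further listed genes between any pair of groups. The block in edgeR changed no other call of a factor, a listed gene or a targeted gene. Over all genes, sgZNF507 against EV gave 40 calls, 101 without a filter, 121 with the block, 63 with the block in DESeq2 and 12 to 44 when 1 library was left out (12 without EV replicate 1, 22 without EV replicate 2 and 25 without sgZNF507 replicate 1). In sgZNF146 against EV there were 0 calls, 19 without a filter, 3 with edgeR and 3 with DESeq2 on the 4 libraries compared, 33 with the block and 0 to 3 when 1 library was left out. In sgZNF507 against sgZNF146 there were 38 calls, 112 without a filter, 196 with the block, 75 with the block in DESeq2 and 13 to 37 when 1 library was left out (13 without sgZNF146 replicate 1 and 23 without its replicate 2). The cause was not tested. Over the 99 changes of the factors, 1523 of the alternative values moved by less than 1 SE, 59 moved by more, and 2 passed the threshold, both for CBX5 with the block. Other scalings left the median of all genes within 0.01 of 0. Depth limits the genes with few counts, such as L1TD1 with 12 to 29 counts a library and APOBEC3A with 7 to 22, and all comparisons rest on 2 libraries a group.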

Other observations

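Among the 73 tested genes of the further list, the replicate term of the blocked edgeR fit passed the threshold for 9, of which 7 were higher in replicate 1 and 2 in replicate 2, beside 7.25% of all genes. The following were named after their values were seen. TET1, which oxidizes methylated cytosine, was higher in replicate 1 (log2 of replicate 2 over replicate 1, −0.28, adjusted p = 4.64e-05) and BRCA2, of homologous recombination, was higher in replicate 2 (0.31, adjusted p = 0.000138). The promoter-binding factors SP1 (−0.17) and RUNX3 (−0.35) passed with YY1 (−0.17), 3 of the 5 listed in that role, all higher in replicate 1.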
